A study of Homo sapiens and Homo sapiens
Mus musculus and Mus musculus with 200 samples.

Results

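Versions of the transcription factor TWIST1 that carry pieces of NEUROD1 were mapped on the genome of HEK293 cells with and without the homeodomain factor ALX4. The members are the 10 V5 peak lists of TWIST1(NEUROD1 loop), TWIST1(NEUROD1L), TWIST1(NEUROD1M), TWIST1(NEUROD1R) and TWIST1(NEUROD1ins), out of 200 samples in the series, chosen by construct name. Each construct has 1 library in each ALX4 state. The reference is TWIST1(WT), the unaltered factor, with 3 libraries in each state. HEK293 is a human embryonic kidney line, here of unedited genotype in every group. All factors came from pcDNA3.1 plasmids, the ALX4 protein carried a Flag tag, and cells were harvested 24 h after transfection. A V5 antibody was used for all of these HEK293 lists, so they show where the TWIST1 protein lay and not where ALX4 lay. The neural crest cell lists used for comparison below came from a TWIST1 antibody. The labels do not say which residues the letters L, M, R and ins stand for, how much protein each plasmid gave or whether libraries came from separate cultures. P-values over the TWIST1(WT) libraries therefore measure a spread that may be technical.

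TWIST1 belongs to the basic helix-loop-helix (bHLH) family, whose members bind as dimers to E-boxes, short DNA words that begin with CA and end with TG. In these proteins the basic region and first helix touch DNA, and the loop joins that helix to the next one. NEUROD1 is a bHLH factor of nerve and endocrine cells, whereas TWIST1 acts in embryonic mesenchyme of the face, skull and limbs. ALX4 is a homeodomain factor of the same mesenchyme and binds AT-rich words such as TAATTA. The comparison asks how TWIST1 with NEUROD1 segments is placed on DNA when ALX4 is present, and in particular on the composite motif, an E-box and a homeodomain word separated by 4 bases.

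The E-box words searched were CAGATG with its reverse complement CATCTG, and the palindromes CAGCTG and CATATG. The homeodomain words were the palindrome TAATTA, and TAATTG with its reverse complement CAATTA. A composite motif is one of each, in either order, with 4 bases of any kind between them, within 100 bp of a peak's summit, and both strands are covered. The sequences below, from hg38, show such sites, each printed 5′ to 3′ on the strand named, with the E-box and the homeodomain word in capitals. The first 4 were among the strongest sites that TWIST1(WT) occupied in all 3 lists with ALX4 and in none of 3 without it.
LINC00511 intron, chr17:72376653-72376682, minus strand: ccgaaccCATCTGctgtCAATTAgtctaaa
POP4, 2819 bp from its start, chr19:29603456-29603485, plus strand: ctagcgcCAGCTGtggcCAATTActttaga
ATRAID intron, chr2:27215202-27215231, plus strand: ctgaacaCAGCTGtgttCAATTAttagctg
THEM7P intron, chr11:32309975-32310004, minus strand: cggacagCATCTGagtcTAATTAcctaggt
The next 4 were among the strongest composite peaks that a NEUROD1 construct had with ALX4 and lacked without it.
PIP4K2B intron, chr17:38789337-38789366, minus strand: gagaggaCATCTGtggtTAATTAgaccact
FGGY intron, chr1:59692759-59692788, minus strand: ggctcaaCATCTGccatCAATTAgacttcc
Intergenic, 58484 bp from the start of LGI1, chr10:93816346-93816375, plus strand: ctggtggCAGCTGgttcCAATTAgcaggga
Intergenic, 53865 bp from the start of PTGFRN, chr1:116856049-116856078, plus strand: ctcctgcCAGCTGgtccCAATTAtgagctg

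The lists differed in length. Without and with ALX4, TWIST1(NEUROD1 loop) had 14683 and 9190 peaks, TWIST1(NEUROD1L) 26878 and 8559, TWIST1(NEUROD1M) 10200 and 12312, TWIST1(NEUROD1R) 15998 and 26176, and TWIST1(NEUROD1ins) 23413 and 26664. TWIST1(WT) had 30471, 22465 and 56014 peaks without ALX4 and 29430, 41369 and 65005 with it. So the loop and L constructs had fewer peaks with ALX4, and the other 3 had more. Read depth is unknown, and the length of a list moves with it, so shares of a list and the 2000 strongest peaks of each list are used below. Intervals of a share are Wilson 95% intervals, which cover counting error only. The shortest peak of a list, a value that a peak caller can set per library, fell into 3 bands. The loop lists (396 and 397 bp) lay with TWIST1(WT) replicate 1 (400 and 424 bp). The L, M and R lists (319 to 349 bp) lay with replicate 2 (324 and 323 bp), and the ins lists (289 and 299 bp) with replicate 3 (281 and 292 bp). The part of this difference in the results was not tested, and differences from the replicate of the same band are given beside the main ones. The list of cells transfected with pUC19, a plasmid without these factors, with 463 peaks, overlapped between 0.780% and 1.90% of the constructs' peaks and between 1.2% and 3.35% of their 2000 strongest. In reverse, the constructs held 28.1% to 52.5% of the pUC19 peaks.

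With ALX4, all 5 constructs had a larger share of composite peaks than without it. The share went from 0.0341% to 0.229% for the loop construct (5 and 21 peaks), from 0.0521% to 0.631% for L (14 and 54 peaks) and from 0.0196% to 0.179% for M (2 and 22 peaks). It went from 0.05% to 0.199% for R (8 and 52 peaks) and from 0.0342% to 0.218% for ins (8 and 58 peaks). The 2 intervals of a construct did not overlap in any of the 5, the closest being M, with an upper bound of 0.0715% without ALX4 and a lower bound of 0.118% with it. The mean difference was 0.253 percentage points, and the two-sided exact sign-flip test over the 5 constructs gave p = 0.0625, the smallest value it can give (Benjamini-Hochberg adjusted p = 0.104 over 5 tests). Without ALX4 the constructs' shares lay near those of windows 1000 bp away from their summits, which held the motif in 0.0238% to 0.0363% of cases.

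TWIST1(WT) started and ended higher. Its 3 lists went from 0.19%, 0.178% and 0.152% without ALX4 to 0.860%, 1.02% and 0.758% with it, a mean difference of 0.706 percentage points (exact permutation test, p = 0.10, the smallest possible with 3 against 3, adjusted p = 0.125). In percentage points, the increase was smaller in every construct than in every TWIST1(WT) replicate. The increases were 0.194, 0.579, 0.159, 0.149 and 0.183 percentage points for loop, L, M, R and ins, against 0.669, 0.842 and 0.607 for the 3 replicates. The difference of the mean increases was -0.453 points (exact permutation test of 5 against 3, two-sided p = 0.0357, the smallest possible, adjusted p = 0.104 over 5 tests). The constructs are different proteins and not replicates of 1 condition. Each TWIST1(WT) increase joins a list with and a list without ALX4 by a replicate number not stated to pair them. The test treats all these increases as exchangeable, so its p describes only how these 5 and 3 values separate. The same limit holds for the other tests of 5 against 3 below. As a ratio of the share with ALX4 to the share without, the direction was the other way in 4 of 5. The ratio was 6.71 for loop (95% counting interval 2.46 to 22.8), 12.1 for L (6.64 to 23.6), 9.11 for M (2.24 to 79.9), 3.97 for R (1.87 to 9.68) and 6.37 for ins (3.03 to 15.4). TWIST1(WT) had 4.52, 5.73 and 5.00 (intervals from 3.38 to 8.14 over the 3 replicates). The mean log2 ratio was higher in the constructs by 0.50, which did not pass the exact permutation test (p = 0.25, added after the data were seen). So the smaller increase holds for the difference in percentage points and not for the ratio, and the ratios rest on 2 to 14 peaks without ALX4. The ratios also moved with list length. At equal length they were 6.71 (loop), 14.2 (L), 9.11 (M), 3.97 (R) and 6.37 (ins). The TWIST1(WT) replicate of the same shortest-peak band then had 5.77, 11.9, 7.90, 6.27 and 5.20 in that order, so R alone lay below its replicate. Set against the TWIST1(WT) replicate of the same shortest-peak band, the mean difference in points was -0.508 (exact sign-flip test, p = 0.0625, the smallest possible). With a window of 50 bp, or with peaks of a -log10 q of at least 5 only, L no longer lay below every replicate and p was 0.0714. The increase of L was 0.425 points in the narrow window, against 0.404 for replicate 3, and 0.855 points among the peaks of high -log10 q, against 0.746 for replicate 3.

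**Figure D1:**
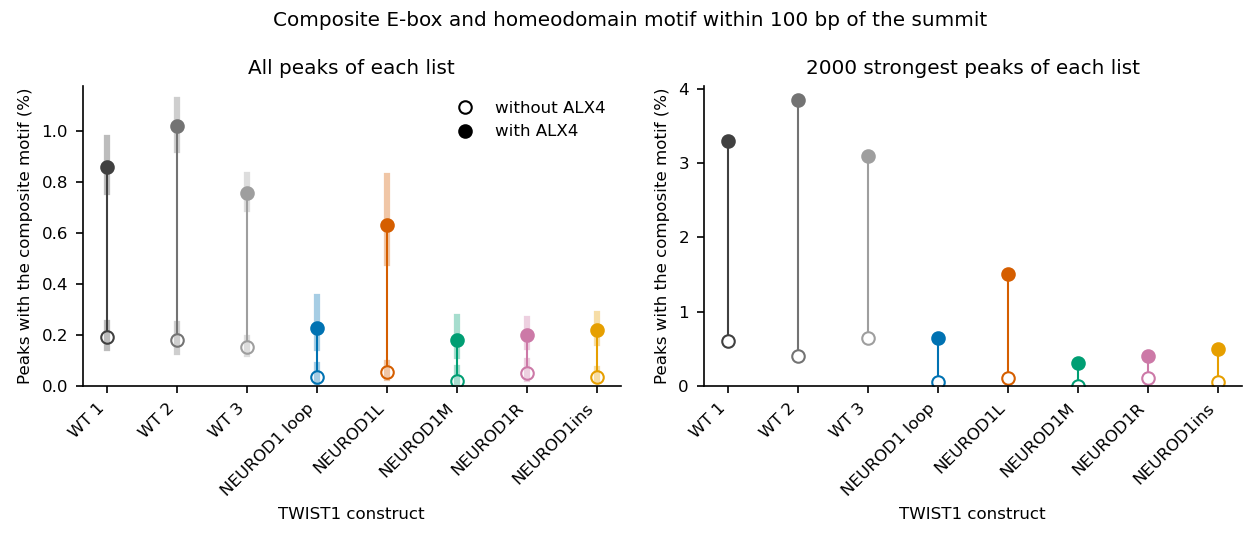
Share of peaks with the composite motif (vertical axis, percent) in each TWIST1 construct (horizontal axis), without ALX4 (open) and with ALX4 (filled), for all peaks (left, pale bars are Wilson 95% intervals) and for the 2000 strongest peaks (right). All 5 NEUROD1 constructs are higher with ALX4, L at 0.631% and the other 4 at 0.179% to 0.229%, below the 0.758% to 1.02% of the 3 TWIST1(WT) lists.

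Constructs also lay below TWIST1(WT) where list length was equal. Among the 2000 strongest peaks with ALX4, the composite motif was in 0.65% of the loop list, 1.5% of L, 0.3% of M, 0.4% of R and 0.5% of ins. TWIST1(WT) had 3.3%, 3.85% and 3.1%. In TWIST1(WT) lists of the same shortest-peak band, shortened to the construct's length, the share with ALX4 was 1.73% beside the loop construct, 2.11% beside L, 1.86% beside M, 1.37% beside R and 1.16% beside ins. L thus stood between the other constructs and TWIST1(WT) in both measures, with 30 composite peaks among its top 2000 against 6 to 13 in the other 4.

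In the constructs, a spacing of 4 bases was the most frequent one with ALX4 and not without it. All gaps from 0 to 20 bases between the E-box and the homeodomain word were counted at the summits. Without ALX4, the gap of 4 ranked between 9 and 16 among the 21 gaps in the 5 constructs. With ALX4 it ranked 1 in all 5. L had 54 peaks at a gap of 4 and 17 at the next gap, ins 58 and 26, and R 52 and 38. The loop construct had 21 and 16 and M 22 and 17, so in those 2 lists the lead rests on 5 peaks each. In TWIST1(WT) the gap of 4 ranked 1 in all 6 lists, with 40 to 85 peaks without ALX4 and 253 to 493 with it.

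**Figure D2:**
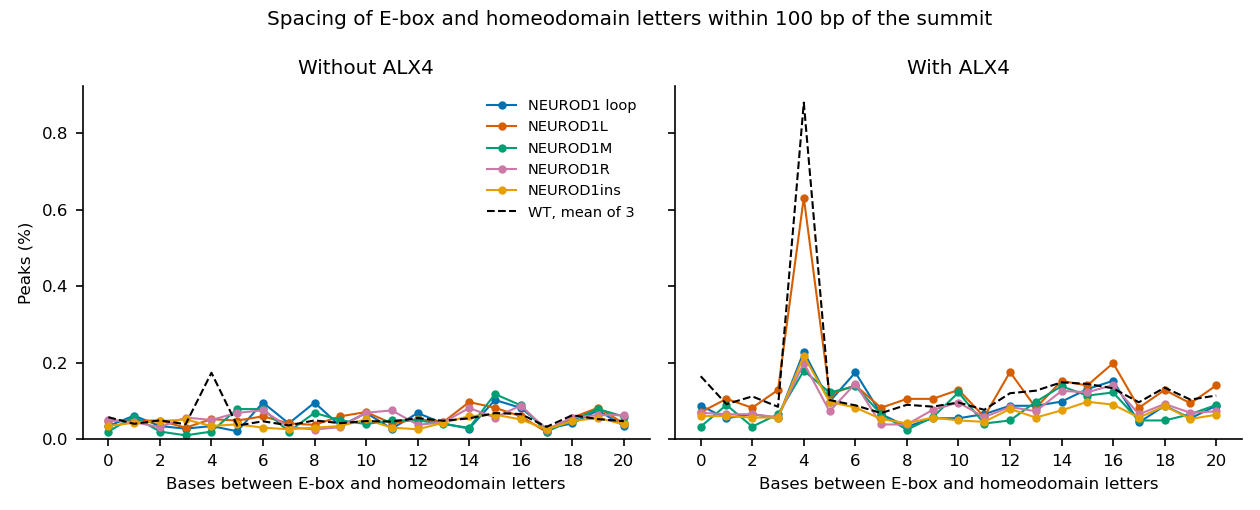
Share of peaks (vertical axis, percent) against the number of bases between an E-box and a homeodomain word within 100 bp of the summit (horizontal axis), without ALX4 (left) and with ALX4 (right), for the 5 NEUROD1 constructs and the mean of 3 TWIST1(WT) lists (dashed). With ALX4 each construct has its highest point at 4 bases, and without it none of the 5 has.

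Over whole lists, composite peaks also lay higher in the constructs' lists when ALX4 was present. Peaks were ranked within a list by -log10 p and given a percentile. The median percentile of composite peaks went from 67.1 to 85.7 in the loop list, from 30.9 to 80 in L, from 39.3 to 64.0 in M, from 40.8 to 56.3 in R and from 52.2 to 65.6 in ins. The mean difference was 24.3 percentile points (exact sign-flip test, p = 0.0625, the smallest possible). The lists without ALX4 hold only 2 to 14 such peaks, and among peaks of a -log10 q of at least 5 the mean difference was -1.10 points. With any E-box word from CA to TG in the motif it was 10.8 (exact sign-flip test, p = 0.375). Among the 2000 strongest peaks the changes were 0.685 for loop, -6.29 for L, 5.09 for R and 3.27 for ins. M had no composite peak there without ALX4. Over whole lists TWIST1(WT) changed by 5.46, 14.4 and -2.11 points, from 75.9, 59.4 and 72.7 without ALX4.

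Composite peaks of the constructs were in all 3 TWIST1(WT) lists with ALX4 more often than other peaks of the same lists were, without a test. Merged over the 5 lists with ALX4 they made 110 sites, of which 77 were in all 3 TWIST1(WT) lists with ALX4 and 5 in none. Of these sites, 49 were in 1 construct, 20 in 2, 15 in 3, 13 in 4 and 13 in all 5. For reference, sites were also merged from all peaks of the construct and TWIST1(WT) lists. Of those, 18756 were in 1 construct with ALX4, 7331 in 2, 4831 in 3, 3844 in 4 and 3242 in all 5. Sites in 1 construct were thus the most frequent in both counts. Per list, 81.0% of composite peaks for loop, 87.0% for L, 86.4% for M, 65.4% for R and 82.8% for ins overlapped all 3 TWIST1(WT) lists with ALX4, against 49.2%, 57.4%, 47.1%, 35.5% and 33.6% of all peaks. A TWIST1(WT) peak without ALX4 lay at 18 of 21 composite peaks for loop, 41 of 54 for L, 20 of 22 for M, 34 of 52 for R and 48 of 58 for ins. Over all peaks of the lists that share was 89.5%, 94.1%, 94.1%, 80.9% and 80.9%. Most composite peaks also overlapped a TWIST1 site of human cranial neural crest cells (hCNCC), the embryonic cells that form facial mesenchyme and were grown in this study from a stem cell line: 20 of 21 composite peaks for the loop construct, 47 of 54 for L, 20 of 22 for M, 35 of 52 for R and 50 of 58 for ins. Over all peaks of the same lists the hCNCC share was 33.1%, 36.1%, 31.2%, 22.2% and 22.7%. The composite peaks that were in the list with ALX4 and absent from the same construct's list without it numbered 16, 41, 16, 40 and 50 in that order. Those that overlapped the list without ALX4 numbered 5, 13, 6, 12 and 8. Over all peaks with ALX4, the share that overlapped it was 55.8%, 77.5%, 44.1%, 40.7% and 50.7%.

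The 8 sequences printed above show these classes site by site. Each of the last 4 was chosen through constructs where it was strong with ALX4 and absent without it. These were loop for PIP4K2B, loop and ins for FGGY, L and R for LGI1, and L, M, R and ins for PTGFRN. In those constructs both traits follow from the choice. At the PIP4K2B intron site, PIP4K2B being a lipid kinase, the authors' fold enrichment with ALX4 was 8.10 in the loop list, 8.51 in L, 2.59 in M, 2.86 in R and 6.67 in ins, and no list of a construct without ALX4 held it. TWIST1(WT) had 24.3, 25.7 and 30.4 there with ALX4 and 3.43, 5.58 and 6.30 without. Of the 4 sites in this group it was the one present in all 5 constructs with ALX4. At the FGGY intron site, FGGY being a carbohydrate kinase gene, the values with ALX4 were 7.82 in loop, 11.4 in L, 8.38 in M and 14.9 in ins, and R did not hold it. No construct held it without ALX4, and TWIST1(WT) had 10.7, 31.9 and 22.2 with ALX4 and 8.25, 14.9 and 13.8 without.

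The intergenic site toward PTGFRN had 19.5 in L, 18.4 in M, 19.3 in R and 15.5 in ins with ALX4. These peaks lay between percentiles 98.2 and 99.4 of their lists, the site having been chosen for its strength in the same lists. The loop construct had a peak there only without ALX4, at 3.32. TWIST1(WT) had 23.9, 29.6 and 66.8 with ALX4 and 9.95, 15.3 and 16.5 without it. The site toward LGI1 was held with ALX4 by loop (6.14), L (23.3), R (14.1) and ins (10.4) and by no construct without it. At each of these 4 sites TWIST1(WT) was present in all 6 lists, so TWIST1(WT) was called there in both states. A further site, in an intron of LRRC3C, was chosen by the same rule through M. It was in all 5 constructs with ALX4 (5.90 in loop, 11.5 in L, 7.05 in M, 17.1 in R and 10.4 in ins) and in all but M without it.

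Sites that TWIST1(WT) held only with ALX4 were largely missing from the constructs. Merging the peaks of the 10 construct and 6 TWIST1(WT) lists gave 118291 sites, of which 5138 (4.34%) were in all 3 TWIST1(WT) lists with ALX4 and none of 3 without. The lists with ALX4 held 157 of these sites for loop (3.06%), 199 for L (3.87%), 148 for M (2.88%), 643 for R (12.5%) and 482 for ins (9.38%). Each share was below the share of all sites that the same list held, which was 7.56%, 6.99%, 9.98%, 21.2% and 21.5% in the same order. Over the 5 lists the mean share of these sites was 6.34%, and 0.510% where only the 2000 strongest peaks of each list were used, which held 1.68% to 1.69% of all sites. With a reciprocal overlap of 50%, L alone held slightly more of them, 2.88% against 2.34% of all sites. Of the 5138 sites, 4094 (79.7%) were in no construct with ALX4 and 25 (0.487%) in all 5, against 67.9% and 2.74% of all sites. Without ALX4 the lists held 2.14% (loop), 6.79% (L), 0.817% (M), 2.90% (R) and 2.37% (ins) of them, against 12.1%, 22.0%, 8.30%, 13.0% and 18.8% of all sites. Sites in a construct's list with ALX4 and not in its list without it were 2.80%, 3.13%, 2.69%, 11.4% and 8.60% of the 5138, against 3.17%, 1.45%, 5.39%, 12.3% and 10.3% of all sites. In that count L alone lay above its background. All sites, here and below, include sites found in the constructs' own lists alone, which the 5138 exclude by definition. Small differences from this background, such as those of loop and R in that count, are therefore not read.

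Of the 5138 sites, 101 had the composite motif at the summit of TWIST1(WT) replicate 1. Constructs with ALX4 held 1 of 101 for loop (0.990%), 10 for L (9.90%), 2 for M (1.98%), 7 for R (6.93%) and 11 for ins (10.9%). The same lists held 7.56%, 6.99%, 9.98%, 21.2% and 21.5% of all sites. L alone lay above that share, with an interval of 5.47% to 17.3%. With ALX4, 82 of 101 (81.2%) were in no construct, against 79.7% of the 5138 and 67.9% of all sites. Without ALX4 the lists held 1, 6, 0, 0 and 0 of the 101. The strongest was the LINC00511 intron site, where TWIST1(WT) with ALX4 had fold enrichments of 19.5, 28.8 and 27.3 and, of the constructs, ins alone was called, at 4.41. At the ATRAID intron site TWIST1(WT) had 16.2, 16.8 and 14.8, and L, M and R had 4.30, 4.89 and 4.64. At the POP4 site TWIST1(WT) had 14.0, 14.4 and 17.3, and at the THEM7P intron site 12.1, 14.8 and 21.9, and neither was in any construct list. The other 4 sites chosen by the same rule were in no construct list either. POP4 encodes a subunit of the RNA-cleaving enzymes RNase P and MRP. Fold enrichments are compared here only as the authors' value of each peak, and absence from a list means only that no peak was called.

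Sites that behaved the opposite way in TWIST1(WT), present in all 3 lists without ALX4 and in none with it, numbered 1384 (1.17% of all sites). With ALX4 the constructs held 104 of them for loop (7.51%), 159 for L (11.5%), 209 for M (15.1%), 497 for R (35.9%) and 528 for ins (38.2%). Of these, 40, 11, 124, 226 and 177 were absent from the same construct's list without ALX4. In every construct the share held with ALX4 was above that of the sites TWIST1(WT) gained. The exception was R with the 2000 strongest peaks (0.289% against 0.389%). With those peaks all 5 constructs held fewer of these sites (0.289% to 1.23%) than of all sites (1.68% to 1.69%). The shares also moved with the TWIST1(WT) lists that define the sites. Without replicate 3 loop stood at 15.7%, M at 25.2% and ins at 51.2%. Without replicate 2 M stood at 11.2%, and loop and L at 6.98% and 6.71%, below the 7.95% and 7.35% of all sites. Without replicate 1 loop and L stood at 5.42% and 7.12%, below the 8.00% and 7.40% of all sites. With all 3 replicates the loop construct held no more of them than the 7.56% of all sites. Without ALX4 the same lists held 29.0%, 61.6%, 22.9%, 35.5% and 51.7% of them, with 1 list per state and lists of unequal length. Sites in all 6 TWIST1(WT) lists, 6718 (5.68% of all), were in the constructs' lists with ALX4 in 53.6% (loop), 58.1% (L), 68.6% (M), 87.2% (R) and 86.9% (ins) of cases. In that class the composite motif at the summit of replicate 1 marked 36 sites, and with ALX4 the constructs held 18 (loop), 26 (L), 23 (M), 28 (R) and 31 (ins) of them.

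**Figure D3:**
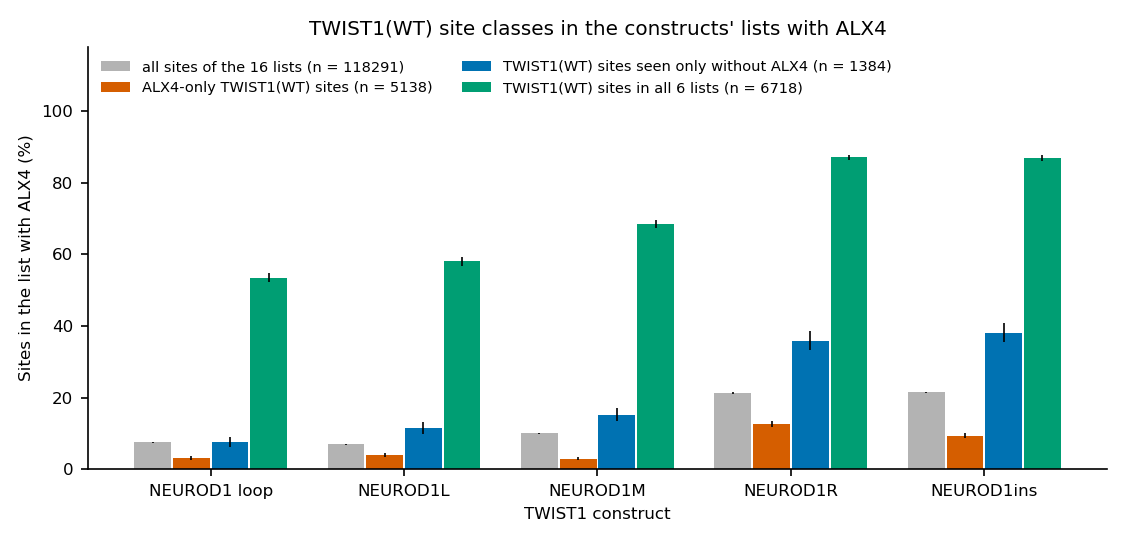
Share of sites (vertical axis, percent, with Wilson 95% intervals) found in each NEUROD1 construct's list with ALX4 (horizontal axis), for all 118291 sites, 5138 sites of TWIST1(WT) seen only with ALX4, 1384 seen only without it and 6718 seen in all 6 lists. In each construct the sites TWIST1(WT) gained with ALX4 are the lowest bar, from 2.88% to 12.5%.

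The double E-box, an arrangement of 2 such E-boxes 5 bases apart that contains no homeodomain word, had smaller differences between states in the constructs than in TWIST1(WT). Its share went from 0.701% to 0.653% in loop, from 0.978% to 1.25% in L, from 1.34% to 0.991% in M, from 0.613% to 0.500% in R and from 0.970% to 0.938% in ins. The mean difference was -0.0547 points, with 1 of 5 higher (exact sign-flip test, p = 0.562). It was 0.0197 points without M, -0.136 without L and -0.00121 in a window of 50 bp. Among the 2000 strongest peaks it was -0.52 points (exact sign-flip test, p = 0.125), and L was at 3.25% with ALX4 against 3.5% without, where its whole list was higher with ALX4. TWIST1(WT) went from 1.03% ± 0.145 to 0.279% ± 0.0258 (SD, n = 3). The drop was smaller in all 5 constructs than in any TWIST1(WT) replicate, and the difference of the changes was 0.698 points (exact permutation test of 5 against 3, p = 0.0357, adjusted p = 0.0446 over 5 tests added after the data were seen). Against the replicate of the same band the mean difference was 0.755 points (exact sign-flip test, p = 0.0625, the smallest possible). One double E-box site that TWIST1(WT) held only without ALX4 lies in an intron of the noncoding gene ENSG00000289402, printed on the plus strand with both E-boxes in capitals.
chr1:20487051-20487079: gaggcgCATCTGccaagCAGATGgtaact
TWIST1(WT) had fold enrichments of 5.97, 6.98 and 4.51 there without ALX4 and no peak with it. With ALX4 the loop construct had 4.58, M 5.52, R 5.29 and ins 4.00, and L had no peak. Without ALX4 the loop construct had 2.90, L 4.96, M 2.99 and ins 5.68, and R had no peak. This site is not typical of its set and was chosen after its values were seen. Of 71 double E-box sites that TWIST1(WT) held only without ALX4, 33 were in no construct with ALX4, 23 in 1 and 2 in 4, this one included. The 33 were 46.5% of the 71. In no construct with ALX4 were also 41.8% of the 1384 sites held only without ALX4, and 67.9% of all sites. Of the 71, the lists without and with ALX4 held 14 and 3 for loop, 41 and 3 for L, 21 and 8 for M, 9 and 14 for R, and 40 and 34 for ins. With ALX4 these were 4.23%, 4.23%, 11.3%, 19.7% and 47.9% of the 71. The same lists held 7.51%, 11.5%, 15.1%, 35.9% and 38.2% of the 1384 sites.

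The homeodomain words by themselves, with or without an E-box nearby, were more common with ALX4 in all lists, by fewer points in the constructs. With ALX4 they were in 9.64% of peaks for loop, 10.6% for L, 8.19% for M, 9.72% for R and 8.21% for ins, up by 1.41 to 2.62 points. TWIST1(WT) went from 6.95% ± 0.786 to 18.4% ± 1.28 (SD, n = 3). The difference of the changes was -9.26 points (exact permutation test, p = 0.0357, adjusted p = 0.0446), and -9.42 against the replicate of the same band. Windows 1000 bp away from the constructs' summits held them in 13.0% to 13.8% of cases, so at the constructs' summits these words were less common than nearby in both states.

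Base composition and position differed in opposite directions. The GC content within 100 bp of the summit was higher with ALX4 in all 5 constructs, by 0.561 to 3.02 points, and reached 55.5% to 58.8%. In all 3 TWIST1(WT) replicates it was lower, with changes of -6.82, -6.23 and -5.62 points, and reached 48.3% to 49.9% (difference of the changes 7.98 points, exact permutation test, p = 0.0357, adjusted p = 0.0446; 7.99 points against the same band). The share of peaks within 1000 bp of a transcription start went from 33.7% to 42.8% for loop, from 23.5% to 37.5% for L, from 32% to 44.1% for M, from 30.0% to 33.2% for R and from 31.7% to 35.8% for ins. In TWIST1(WT) it went from 28.2%, 29.6% and 23.1% to 19.3%, 19.04% and 18.1% (difference of the changes 16.7 points, exact permutation test, p = 0.0357, adjusted p = 0.0446; 17.6 points against the same band). Both opposite directions were also present among the 2000 strongest peaks of every list.

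**Figure D4:**
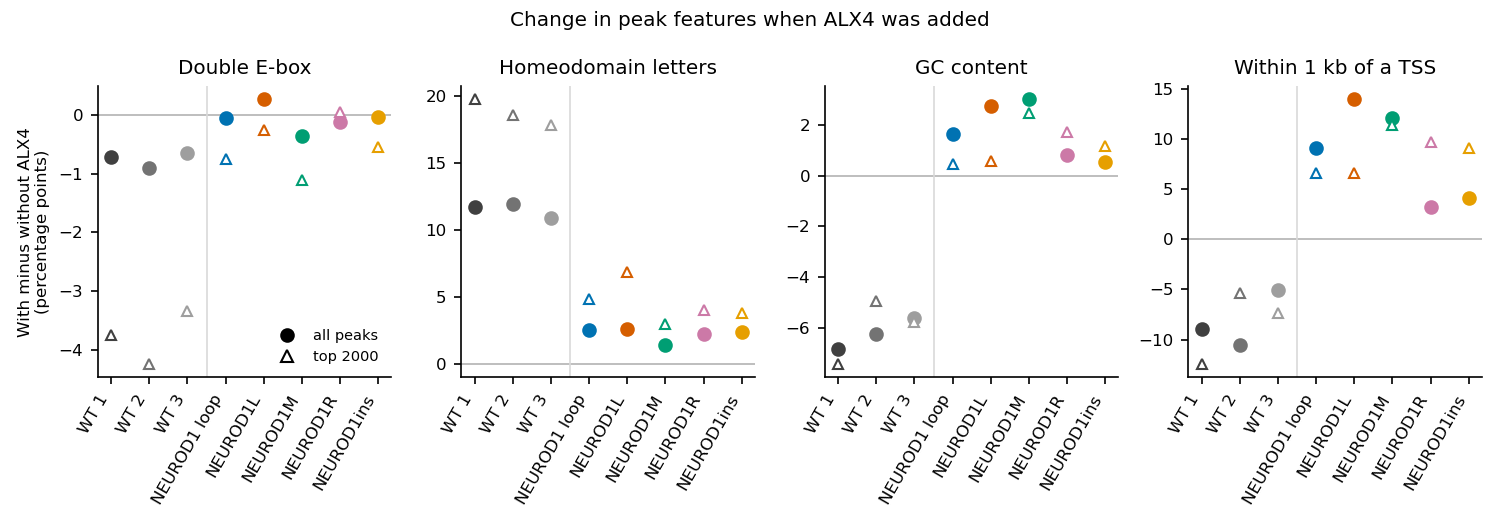
Change with ALX4 (vertical axes, percentage points, with minus without) in the share of peaks with a double E-box, with a homeodomain word, in GC content and in the share within 1000 bp of a transcription start, for each list pair (horizontal axis), over all peaks (circles) and the 2000 strongest (triangles). The 5 NEUROD1 constructs lie apart from the 3 TWIST1(WT) replicates in each panel, and on the other side of 0 for GC content and transcription starts.

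The words of the E-box itself were counted among the 2000 strongest peaks. CACATG or CATGTG was less common with ALX4 in every list, from between 34.4% and 44.1% to between 25.3% and 34.5% in the constructs and from between 31.1% and 36.0% to between 23.1% and 24.1% in TWIST1(WT). CAAATG or CATTTG stood at 8.20% to 11.6% in the constructs with ALX4 and at 9.65% to 12.2% without it, whereas TWIST1(WT) had 14.2% to 16.3% with ALX4 and 9.95% to 11.9% without. CACGTG lay between 9.85% and 12.4% in the constructs in both states. In TWIST1(WT) it was 4.85% to 5.70% with ALX4 and 8.70% to 12.6% without it. CAGATG or CATCTG, the most common pair, was in 48.9% to 55.9% of the constructs' strongest peaks in both states. TWIST1(WT) had this pair in 49.55% to 54.6% without ALX4 and in 40.4% to 42.65% with it. These shares were compared without a test.

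The positions of the strongest peaks separated the constructs from TWIST1(WT) with ALX4. In that state, a construct's 2000 strongest peaks overlapped those of a TWIST1(WT) list in 17.2% to 29.8% of cases (median 21.8% over 15 pairs). Constructs overlapped each other in 46.0% to 63.8% (median 55.3%, 20 pairs), and TWIST1(WT) replicates each other in 62.5% to 70.2% (median 63.4%, 6 pairs). Without ALX4 the 3 ranges lay together, at 37.2% to 57.6%, 42.3% to 53.5% and 49.5% to 57.2%. The pairs share lists and were not tested. By name, M with ins had the highest overlap among constructs with ALX4, and L with replicate 3 the highest between a construct and TWIST1(WT).

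With ALX4 the constructs' strongest peaks were nearer to those of TWIST1(WT) without ALX4 than with it. The mean overlap over 3 TWIST1(WT) lists was 39.3% against 22.0% for loop, 46.0% against 27.2% for L, 45.6% against 19.5% for M, 43.6% against 21.8% for R and 47.7% against 21.4% for ins. In the 5 constructs the SD over the 3 lists was at most 3.16 points, and the 2 ranges did not overlap in any construct. Within a construct, the top 2000 with ALX4 overlapped the top 2000 without it in 44.6% (loop), 46.8% (L), 47.4% (M), 46.5% (R) and 53.0% (ins), against 24.9%, 24.5% and 26.6% in TWIST1(WT).

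**Figure D5:**
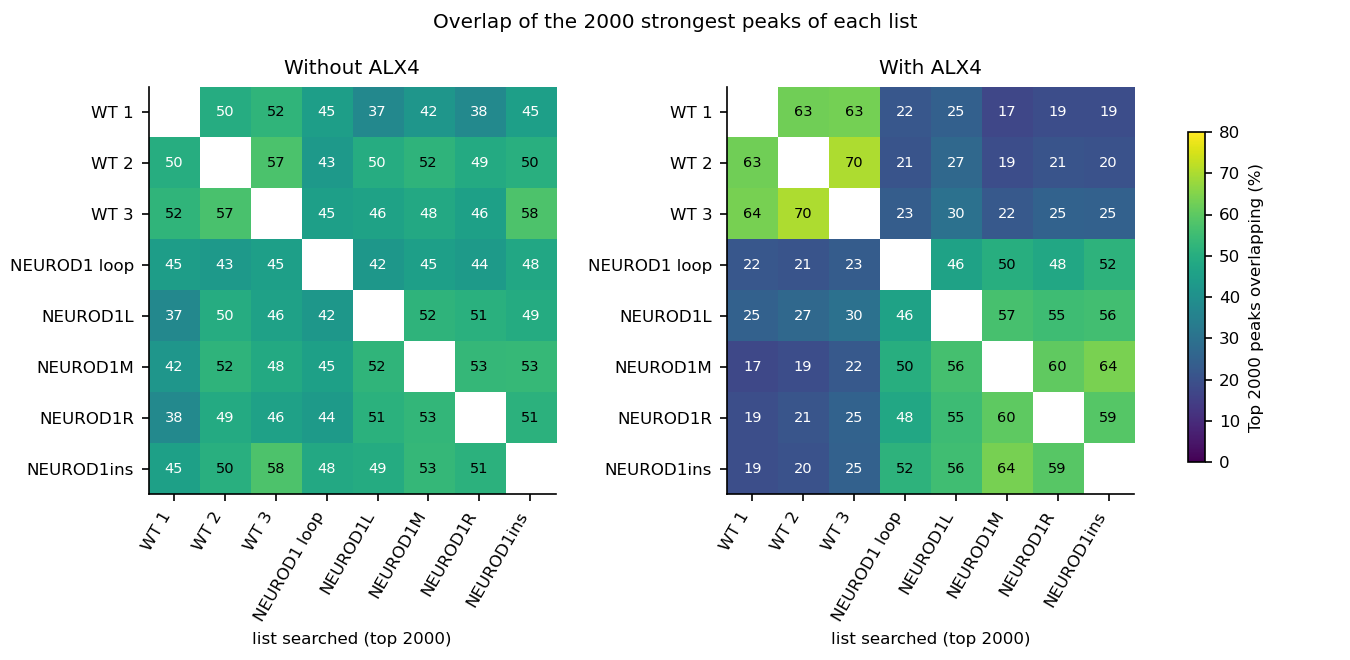
Percent of the 2000 strongest peaks of the list in each row that overlap the 2000 strongest peaks of the list in each column, without ALX4 (left) and with ALX4 (right). With ALX4 the pairs of a NEUROD1 construct and TWIST1(WT), in both directions, lie between 17.05% and 29.8%, below all pairs within either set. Without ALX4 the sets are not separated.

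Over whole lists, most peaks of the constructs were TWIST1(WT) sites, defined as sites in at least 2 of 3 lists of a state (28111 without ALX4, 37702 with it). In the same state, these held 75.1% of loop peaks without ALX4 and 73.3% with it, 62.2% and 83.6% for L, 84.3% and 75.2% for M, 77.4% and 60.3% for R, and 69.8% and 57.5% for ins. In reverse, the constructs held 38.7%, 57.9%, 29.6%, 42.6% and 55.3% of the TWIST1(WT) sites without ALX4, and 17.8%, 18.6%, 24.1%, 41.0% and 39.5% of those with it. Lists with ALX4 overlapped the TWIST1(WT) sites of the other state more than those of their own state in all 5 constructs, by 78.4% against 73.3% for loop, 86.5% against 83.6% for L, 83.4% against 75.2% for M, 63.6% against 60.3% for R and 63.6% against 57.5% for ins. Among the 2000 strongest peaks L was the other way (91.05% against 91.5%) and R had 94.65% against 94.4%. Where a shared site needed a reciprocal overlap of 50%, the mean over constructs in the same state was 35.4% with ALX4 and 43.2% without, in place of 70.0% and 73.8%.

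Overlap with V5-NEUROD1, which had 5097 peaks without ALX4 and 3925 with it, was then compared, without a test. Among the 2000 strongest peaks, 36.6% of loop, 30.5% of L, 33.5% of M, 31.6% of R and 34.0% of ins overlapped NEUROD1, and TWIST1(WT) had 34.2%, 31.1% and 32.2%. With ALX4 in both, the constructs stood at 31.4%, 25.2%, 27.6%, 28.4% and 28.5% and TWIST1(WT) at 13.2%, 11.2% and 13.6%. Among these peaks the constructs thus spanned the TWIST1(WT) range without ALX4, and with it each lay above that range. Over whole lists, of unequal length, the constructs without ALX4 had 17.3%, 11.0%, 19.5%, 15.3% and 13.2% in the same order. TWIST1(WT) had 11.0%, 12.9% and 7.14%, so all but L lay above its range there. With ALX4 all 5 did, at 9.52% to 17.6% against 4.28% to 6.44%.

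TWIST1 sites of hCNCC, 42318 in both replicates there, came from a TWIST1 antibody and not from V5. Their labels name WT cells at the start of a dTAG treatment series. These sites were found in 41.8%, 31.8%, 37.0%, 34.6% and 41.4% of the 2000 strongest peaks of loop, L, M, R and ins without ALX4. With it the shares were 51.4%, 48.8%, 49.7%, 47.1% and 54.4%, higher in all 5. TWIST1(WT) went from 47.1% ± 4.12 to 74.9% ± 1.03 (SD, n = 3). The difference of the changes was -14.9 points among these peaks (exact permutation test of 5 against 3, unadjusted p = 0.0357). Over whole lists it was -0.208 points (p = 0.893 by the same exact test). This test, too, was added after the data were seen.

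Genes nearest to the 2000 strongest peaks were counted in 3 lists. Of 35 genes of craniofacial mesenchyme, between 11 and 15 were nearest to such a peak in the constructs with ALX4 and between 10 and 12 without it, and in TWIST1(WT) 13 to 16 and 8 to 12. Of 30 neuronal targets and Notch ligands of proneural factors, the constructs had 6 or 7 with ALX4 and 2 to 7 without, TWIST1(WT) 5 or 6 and 3 to 6, and NEUROD1 itself 10 and 8. Of 11 bHLH partners and inhibitors, such as the E-proteins that pair with TWIST1 and the ID proteins that block pairing, the constructs had 6 to 8 with ALX4 and TWIST1(WT) 6 or 7. Among all coding genes, the top 2000 peaks of a construct list were nearest to 8.08% to 8.88%.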

How the data were processed

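Peak lists, 1 per library, were deposited without a header. Per the submitters' processing notes the tools were Bowtie2 2.4.1, SAMtools 1.10, MACS2 2.2.7.1 and deepTools 3.5.0, and per the labels the build is hg38. The deposited columns hold a score, a ratio (fold enrichment) and -log10 p and q values, all the authors' own, which served here for ranking and filtering inside each list. The lowest -log10 q was 1.30 to 1.31 in every list. Input libraries are labelled for these samples, but whether they served as controls, and the calling threshold, were not stated in the labels.

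Repeated intervals kept the summit of highest -log10 p. Motifs were read from hg38, overlaps of at least 1 bp came from bedtools 2.31.1, genes from GENCODE 44, and exact tests from scipy 1.17.1. The scripts were tested on simulated data. Replicate numbers of TWIST1(WT) are not stated to pair libraries.

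Members and lists were chosen with earlier results of these data known. Named sites were the 8 strongest composite sites of TWIST1(WT) seen only with ALX4 and, for each construct, its 2 strongest composite peaks absent from its list without ALX4, leaving out chromosome 8. Of these 13, 8 are printed.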

Additional observations from a re-analysis of the deposited data

Results flagged for a closer look

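The constructs and the TWIST1(WT) replicates differed in their change with ALX4 by an exact permutation test of 5 against 3 (p = 0.0357, the smallest possible) in 5 measures. The change in composite share differed by -0.453 points, with every construct below every replicate (adjusted p = 0.104 over 5 planned exact tests). As a ratio of shares the direction was the other way, with 4 of 5 constructs above every replicate and a log2 difference of 0.50 (exact permutation p = 0.25). The change in double E-box share differed by 0.698 points, with 1 of 5 constructs higher and all 3 replicates lower. The homeodomain share differed by -9.26 points, and all lists were higher with ALX4. GC content differed by 7.98 points, and the share of peaks near a transcription start by 16.7 points. For these last 2, all 5 constructs were higher with ALX4 and all 3 replicates lower. The causes were not tested. The last 4 of the 5 tests were added after the data were seen.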

How the results depend on the processing

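Leaving out 1 construct or 1 TWIST1(WT) replicate leaves 4 against 3 or 5 against 2, where p cannot go below 0.0571 or 0.0952. So every call on the 5 differences is lost by construction. Their values ran from -0.535 to -0.385 points (composite), 0.616 to 0.772 (double E-box), -9.56 to -9.05 (homeodomain words), 7.67 to 8.29 (GC) and 15.3 to 18.2 (transcription starts). The composite difference was -0.588 at a -log10 q of at least 5 and -0.299 with 50 bp windows (exact permutation p = 0.0714 for both, L overlapping replicate 3). Set against the replicate of nearest shortest peak it was -0.508, and at equal length -1.16 (exact sign-flip permutation p = 0.0625 for both, the smallest possible, chosen after seeing the data). The other 4 differences from that replicate were 0.755, -9.42, 7.99 and 17.6 in the order above, at the same smallest p. On the log2 scale of ratios the composite difference reversed to 0.50 (exact permutation p = 0.25). Composite percentiles reversed to -1.10 at a -log10 q of at least 5 and could not be had for the top 2000, where M has no composite peak without ALX4. Double E-boxes in the constructs reversed to 0.0197 without M, in a leave-out range from -0.136. The hCNCC difference was -14.9 for the top 2000 (exact permutation p = 0.0357), 0.167 at a -log10 q of at least 5, and between -3.16 and 1.54 in leave-outs, positive without M (0.220), R, ins (1.01) or TWIST1(WT) replicate 1 (1.05). The causes of these shifts were not tested.

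Mean overlap of the 5 constructs with TWIST1(WT) sites was 70.0% with ALX4 and 73.8% without. It became 92.2% and 96.7% for the top 2000, 65.8% and 72.2% at a -log10 q of at least 5, 35.4% and 43.2% at reciprocal overlap, 47.3% and 50.5% with sites in all 3 lists, and 46.8% to 63.3% and 50.5% to 62.6% without a replicate. The mean share of ALX4-only sites, 6.34%, became 0.510% (top 2000, where lists held 1.68% to 1.69% of all sites), 5.56% (-log10 q, 5.63% to 22.2%), 4.86% (reciprocal, 2.34% to 14.1%) and 6.68% (summit sites, 5.79% to 18.04%), and 5.71% to 9.50% without a replicate. It was below that of all sites, which include sites found in the constructs alone, in 39 of 40 settings by construct. Overlap with NEUROD1, 13.8% with ALX4 and 15.3% without, became 28.2% and 33.2% (top 2000), 10.1% and 13.5% (-log10 q) and 9.48% and 10.6% (reciprocal). With the TWIST1(WT) replicate block the composite rise was 0.706 with an exact permutation p = 0.25, the smallest 3 pairs allow. Depth is unknown, and each construct has 1 library per state.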
